A study of Homo sapiens with 6 samples.

Results

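The genes described here are those of the cytosolic ribosomal proteins, taken as every entry of the deposited count table whose symbol is RPL or RPS followed by a number and at most the letter A or X, together with RPLP0, RPLP1, RPLP2 and RPSA. The rule uses names only, and it gave 77 genes among 56303 entries, of which 46 belong to the large and 31 to the small subunit. Expression was measured by RNA sequencing in A549, an established human lung adenocarcinoma cell line. The group labelled NC holds 3 libraries of cells transfected with a negative-control siRNA, and the group labelled si holds 3 libraries of cells transfected with siRNA against HNRNPD. The product of HNRNPD is AUF1, a protein that binds AU-rich elements of many mRNAs, usually in their 3′ untranslated regions. No other treatment or genetic change is named for either group. The labels give neither the siRNA sequence, nor whether all si libraries received the same one, nor the time after transfection. Separate cultures are not stated either, and the p-values therefore measure a spread between libraries that may be technical.

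The cytosolic ribosome translates nuclear-encoded mRNAs. Its small subunit reads the mRNA and its large subunit joins amino acids, and each is built in the nucleolus from ribosomal RNA and 1 copy of nearly every ribosomal protein. The mRNAs of these proteins typically begin with a C followed by an unbroken run of pyrimidines, the 5′ terminal oligopyrimidine (TOP) tract, through which mTOR signalling and the protein LARP1 control their translation and stability. Cells in growing cultures and tumour lines make these mRNAs in large amounts.

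The tract is printed here for members on which the results below turn, because it is the feature that defines this class of mRNA. Each sequence runs from 10 bases before to 20 bases from the RefSeq start (RefSeq, GRCh38.p14), 5′ to 3′ on the gene's strand. Capitals mark a run of a C followed by pyrimidines, at least 5 bases long, that begins within 5 bases of that start.
RPS24: aatcgtggttCTCTTTTCCTCCTTggctgt
RPL26: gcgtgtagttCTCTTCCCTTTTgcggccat
RPLP0: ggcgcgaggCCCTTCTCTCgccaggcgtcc
RPS6: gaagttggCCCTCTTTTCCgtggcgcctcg
RPS14: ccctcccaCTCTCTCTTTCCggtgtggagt
RPL39: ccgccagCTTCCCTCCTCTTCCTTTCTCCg
RPL11: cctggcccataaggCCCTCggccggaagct
RPL6: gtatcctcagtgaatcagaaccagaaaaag
RPS26: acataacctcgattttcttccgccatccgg
RPL26L1: tccaggggtcggcgaacgaaacgcggagct
The windows lie at chr10:78033853-78033882 (plus strand) for RPS24, chr17:8383174-8383203 (minus) for RPL26, chr12:120201092-120201121 (minus) for RPLP0, chr9:19380217-19380246 (minus) for RPS6 and chr5:150449720-150449749 (minus) for RPS14. Those of RPL39, RPL11, RPL6, RPS26 and RPL26L1 lie at chrX:119791611-119791640 (minus), chr1:23691769-23691798 (plus), chr12:112411423-112411452 (minus), chr12:56041908-56041937 (plus) and chr5:172958719-172958748 (plus). RPS24, RPL26, RPLP0, RPS6, RPS14 and RPL39 carried runs of 10 to 22 bases, whereas that of RPL11 had 5 bases. RPL6, RPS26 and the paralog RPL26L1 had none of at least 5 bases that begins within 5 bases of the start. In RPS26 the printed letters cttcc form a run of 5 bases, but they begin just beyond that limit. A match is a description of these letters at the RefSeq start, and A549 cells may start transcription elsewhere.

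Of the 77 genes, 62 had an entry among the RefSeq promoters, and 50 of the 62 (80.6%) had such a run. In 42 (67.7%) the RefSeq start base was itself a C that opened at least 5 unbroken pyrimidines, although in most of these the run also reached upstream of it. Among 10781 tested protein-coding genes with an entry, 22.5% had a run that began within the same window and 5.28% had such a C at the start base, and over all 27305 promoters the first share was 21.1%. It was found in 31 of 38 large subunit genes (81.6%) and 19 of 24 small subunit genes (79.2%). Mitochondrial ribosomal protein genes, whose products form the separate ribosome of mitochondria, had a run in 15 of 69 (21.7%).

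The libraries held 37151094 to 43005090 counts, and levels are given as counts per 1000000 counts (CPM) on TMM-scaled totals, TMM being edgeR's correction for composition. HNRNPD was at 965, 942 and 941 CPM in NC libraries 1 to 3 and at 177, 163 and 167 CPM in si libraries 1 to 3. That is a 5.62-fold fall (log2 fold change -2.49, SE 0.06, edgeR adjusted p = 1.41e-15). The lung lineage markers NKX2-1, SFTPB and SFTPC had at most 11 counts in any library, and NAPSA had 27 to 57. Of 5 epithelial markers, KRT8 (3324 to 2053 CPM, group means), KRT18 (992 to 587 CPM) and KRT19 (7.54 to 3.83 CPM) were lower, EPCAM was higher (16.6 to 20.9 CPM) and CDH1 was not called. The leukocyte markers PTPRC and CD3E had at most 2 counts in any library, but CD14 fell from 72, 80 and 111 counts in the NC libraries to 10, 28 and 24 in the si libraries. The endothelial markers PECAM1, VWF and CDH5 had at most 15 counts, and of the fibroblast markers COL1A1 had 190 to 282 and COL3A1 and PDGFRA at most 22. What part these shifts have in the results was not tested. In bulk samples, fewer cells of a type and less RNA per cell cannot be told apart.

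Most cytosolic ribosomal protein mRNAs were lower after HNRNPD siRNA. All 77 genes passed the filter on low counts, and 68 were lower, 1 was higher and 8 were not called at an adjusted p under 0.05. The background was high, since among all 20465 genes tested 27.8% were lower and 28.4% were higher, 56.1% in all. Of the 13666 protein-coding genes tested, 33.3% were lower and 29.5% higher, and of the 7889 whose mean reached 10 CPM, 38.7% were lower and 31.2% higher. The median member changed by -0.41 on the log2 scale (quartiles -0.52 and -0.32), which is a level 24.96% lower. The median over all genes tested was 0.01, and that over the protein-coding genes whose mean reached 10 CPM was -0.05. The change was moderate in size: a fitted fall of 1.2-fold to 1.5-fold was found for 54 members, one of at least 1.5-fold for 13 and one of at least 2-fold only for RPL6. In 68 members all si libraries lay below all NC libraries, against 30.9% of genes tested, and in 1 they lay above, against 31.7%.

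**Figure D1:**
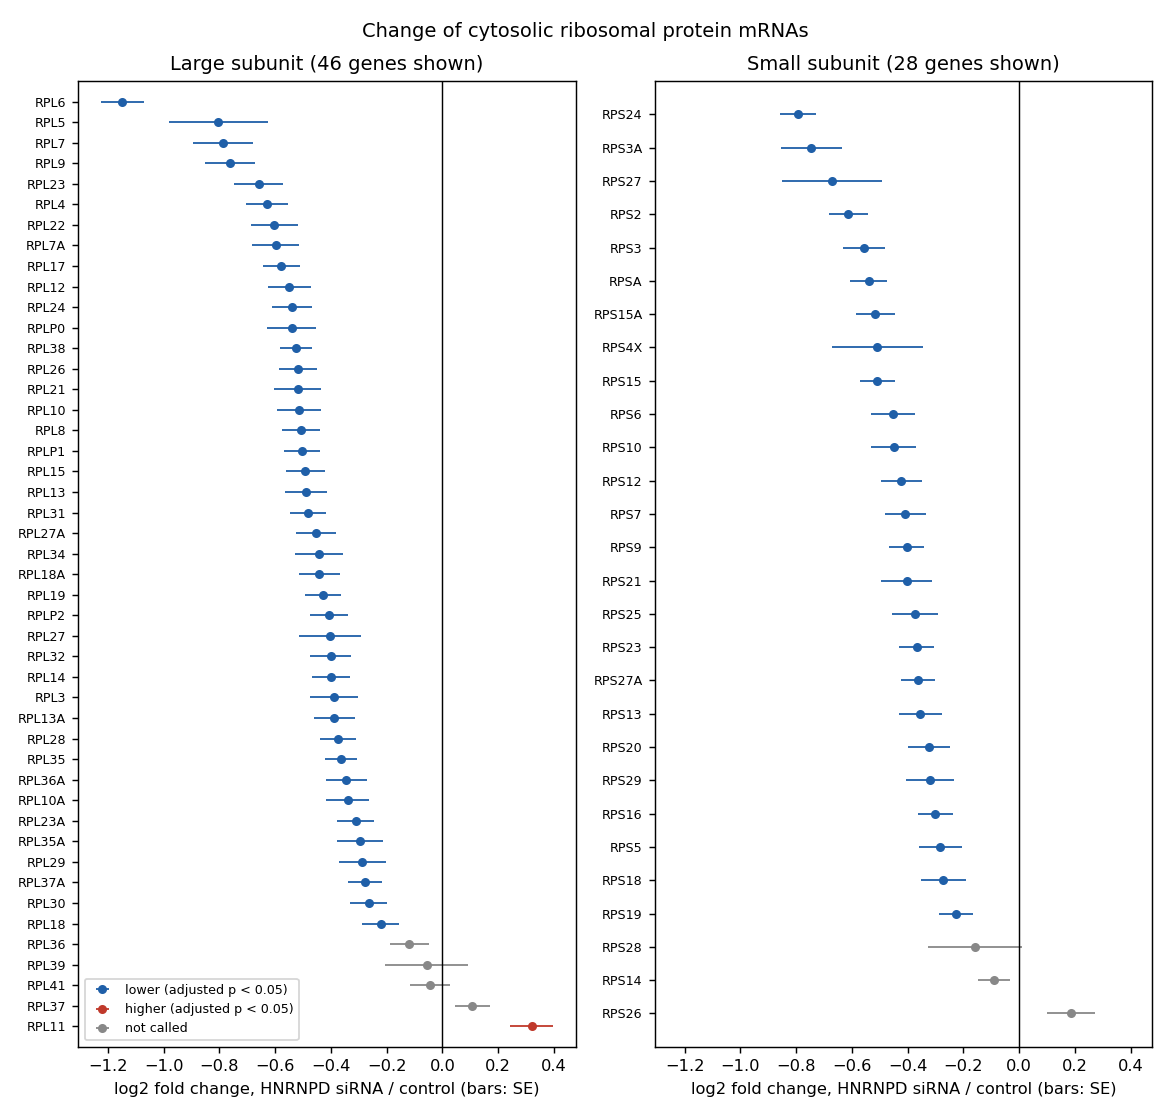
Log2 fold change (HNRNPD siRNA over control, x axis) of 46 large and 28 small subunit genes, with bars of 1 standard error, coloured by the edgeR call at an adjusted p under 0.05. The points run from -1.15 for RPL6 to 0.32 for RPL11, and 71 of the 74 genes shown lie below 0.

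The 77 genes together took 2.45%, 2.24% and 2.26% of all counts in the NC libraries and 1.75%, 1.80% and 1.48% in the si libraries. The means were 2.32% ± 0.11 (SD, n = 3) and 1.68% ± 0.17 (SD, n = 3), and every si library lay below every NC library. Mitochondrial-chromosome genes took 15.1% to 18.5% of counts. Without them the shares were 2.79% ± 0.115 (SD, n = 3) and 2.001% ± 0.218 (SD, n = 3), again with no overlap between the groups. Shares of counts are relative to each library's total and say nothing about the amount of RNA per cell.

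Counts and medians of the subunits lay close together. Of the 46 large subunit genes 41 were lower, 1 was higher and 4 were not called, and their median log2 fold change was -0.44. Of the 31 small subunit genes 27 were lower, none was higher and 4 were not called, with a median of -0.40. Lower calls thus made up 89.1% of large and 87.1% of small subunit genes, against 27.8% of all genes tested. Large subunit genes took 1.64% ± 0.0769 of counts (SD, n = 3) in the NC libraries and 1.17% ± 0.119 (SD, n = 3) in the si libraries, and small subunit genes 0.683% ± 0.0346 and 0.503% ± 0.0520 (SD, n = 3 each). The ratio of large to small subunit counts was 2.39, 2.41 and 2.39 in the NC libraries and 2.28, 2.39 and 2.35 in the si libraries. The means of 2.40 ± 0.0121 and 2.34 ± 0.0558 (SD, n = 3 each) differed by about 1 SD of the si libraries. Every si library lay below every NC library, si library 2 only just (2.385 against a lowest NC value of 2.387). With pseudogene counts added, si library 2 (2.409) lay within the NC range. The difference between the subunits was not tested, since genes are not replicates of a subunit.

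si library 3 stood below the other two of its group. The median deviation of the 77 genes from their control mean was 0.08, -0.05 and -0.02 on the log2 scale in the NC libraries and -0.34, -0.38 and -0.57 in the si libraries. Library 3 was the lowest of its group for 74 of 77 genes, library 1 for 1 and library 2 for 2. HNRNPD mRNA was at 177, 163 and 167 CPM in libraries 1 to 3, and whether the depth of knockdown bears on this order was not tested. The median coefficient of variation of a member was 5.54% among NC libraries and 9.51% among si libraries. Without library 3 the median log2 fold change was -0.36, with 67 members lower and 3 higher. Those 3 were RPL11, RPS26 (edgeR adjusted p = 0.0198) and RPL37 (edgeR adjusted p = 0.0157).

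**Figure D2:**
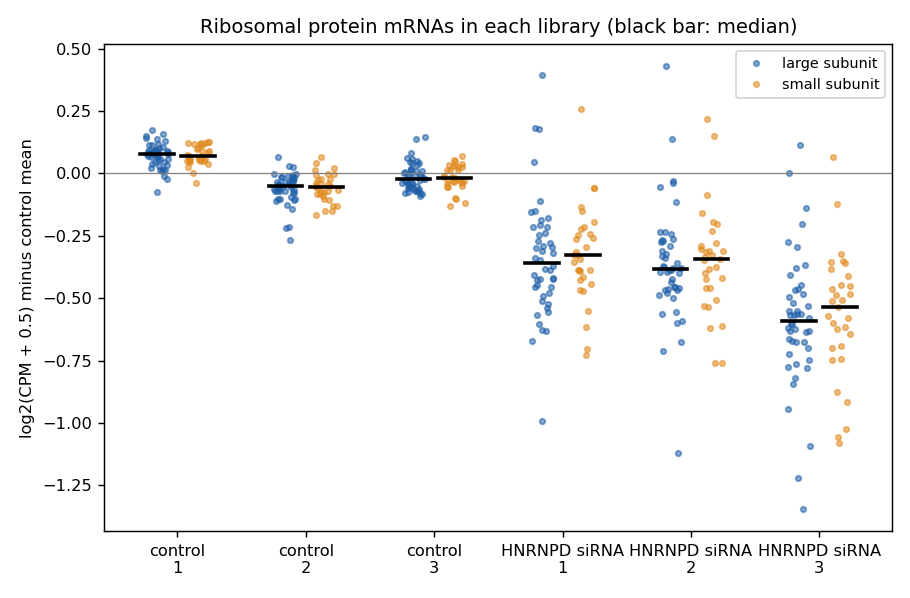
Deviation of each ribosomal protein mRNA from its control mean, as log2(CPM + 0.5) on the y axis, in each of the 6 libraries, with large and small subunit genes as separate columns of points and black bars at their medians. Both columns are near 0 in the NC libraries and lower in all si libraries, lowest in library 3 at -0.59 for the large and -0.53 for the small subunit.

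RPLP0 anchors the acidic stalk of the large subunit, and RPLP1 and RPLP2 extend it. The stalk recruits the translation factors that hydrolyse GTP, and the mRNAs of all 3 proteins were lower. Over all 77 members the median log2 fold change was -0.41 (quartiles -0.52 and -0.32). RPLP0 was at 329, 303 and 296 CPM in the NC libraries and 222, 237 and 179.5 CPM in the si libraries. RPLP1 was at 234, 227 and 232 CPM against 164, 175 and 149 CPM. RPLP2 was at 271, 251 and 273 CPM against 213, 209 and 177 CPM. The groups did not overlap for any of the 3 genes. The falls were 1.45-fold for RPLP0 (log2 fold change -0.54, SE 0.09, edgeR adjusted p = 0.000151), 1.42-fold for RPLP1 (-0.50, SE 0.06, adjusted p = 1.97e-06) and 1.33-fold for RPLP2 (-0.41, SE 0.07, adjusted p = 7.29e-05).

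RPL5 and RPL11 are partners: they enter the large subunit together with its smallest ribosomal RNA, and the same particle can bind MDM2, the ubiquitin ligase of p53, when assembly is disturbed. Their mRNAs changed in opposite directions. RPL5 (ENSG00000122406, chromosome 1, 92832025 to 92841924, plus strand, GRCh38) was at 1304, 1192 and 1171 CPM in the NC libraries and 767, 810.4 and 523 CPM in the si libraries. It fell 1.75-fold, with no overlap between the groups (log2 fold change -0.80, SE 0.18, edgeR adjusted p = 0.0118). RPL11 (ENSG00000142676, chromosome 1, 23691779 to 23696425, plus strand) was at 82.6, 74.6 and 75.5 CPM against 102, 105 and 83.9 CPM. Every si library lay above every NC library, though library 3 lay only just above the highest control. The rise was 1.25-fold (log2 fold change 0.32, SE 0.08, edgeR adjusted p = 0.00197), and RPL11 was the only one of the 77 genes called higher. It was called higher in each of the 15 alternative analyses as well.

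**Figure D3:**
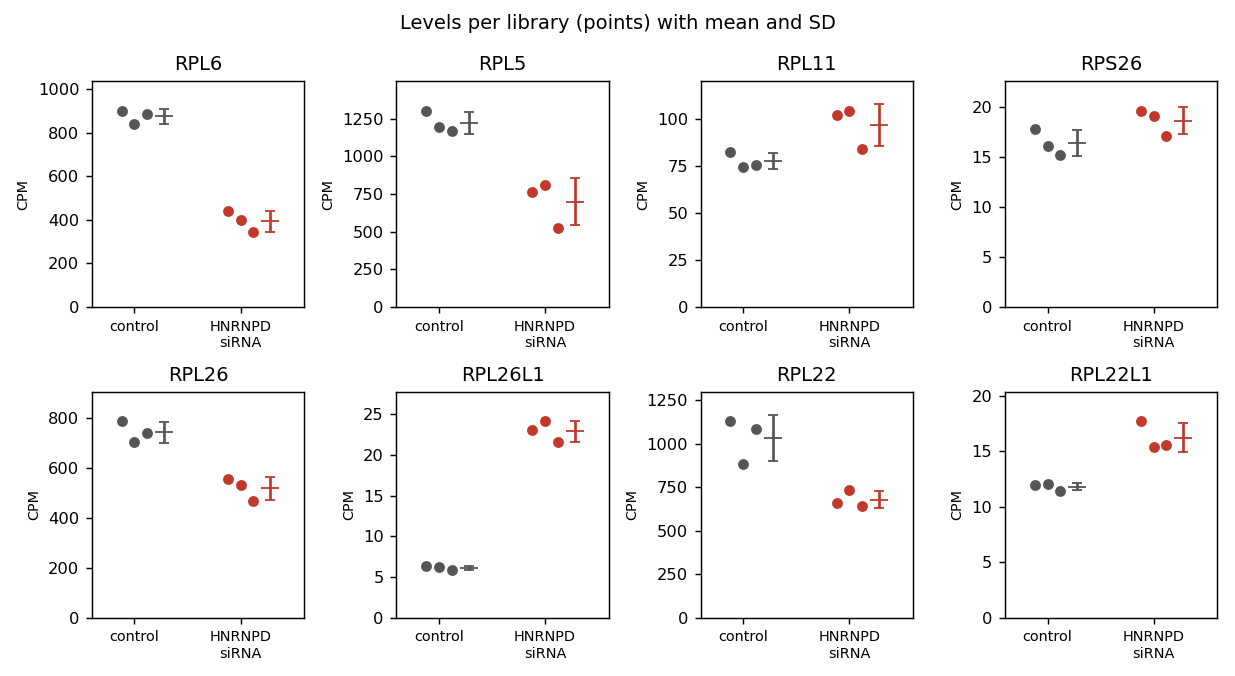
CPM (y axis, starting at 0) of RPL6, RPL5, RPL11 and RPS26 and of 2 pairs of ribosomal protein and paralog, RPL26 with RPL26L1 and RPL22 with RPL22L1, in the control and the si libraries, with the mean and SD of each group beside the points. RPL6, RPL5, RPL26 and RPL22 lie lower in every si library, and RPL11, RPL26L1 and RPL22L1 lie higher in every one.

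RPL6 showed the largest fall of all 77 genes. RPL6 (ENSG00000089009, chromosome 12, 112405190 to 112418838, minus strand), a protein of the solvent side of the large subunit, was at 902, 838 and 884 CPM in the NC libraries and 439, 401 and 343 CPM in the si libraries. The highest si library thus lay far below the lowest NC library. The fall was 2.22-fold (log2 fold change -1.15, SE 0.08, edgeR adjusted p = 1.37e-09). Its pseudogene entries held 0.558% as many counts as RPL6 itself in the NC libraries.

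After RPL6 and RPL5, the largest falls in the large subunit were those of RPL7, RPL9, RPL23 and RPL4. RPL7 (chromosome 8, 73290267 to 73295789, minus strand) was at 591, 550.2 and 566 CPM in the NC libraries and at 368, 356 and 266 CPM in the si libraries. RPL9 (chromosome 4, 39454124 to 39458948, minus strand) was at 51.0, 42.3 and 43.9 CPM against 29.9, 27.7 and 23.5 CPM. In both genes the groups were well apart, at a 1.73-fold fall for RPL7 (log2 fold change -0.79, SE 0.11, edgeR adjusted p = 0.000172) and a 1.70-fold fall for RPL9 (-0.76, SE 0.09, adjusted p = 2.25e-06). RPL23, another protein known to bind MDM2, was at 524, 432 and 442 CPM against 313, 314 and 258 CPM. RPL4, which reaches into the tunnel through which the new chain leaves, was at 976, 815 and 855 CPM against 598, 598 and 513 CPM. Neither gene overlapped between the groups, and they fell 1.58-fold (-0.66, SE 0.09, edgeR adjusted p = 2.53e-05) and 1.55-fold (-0.63, SE 0.08, adjusted p = 1.94e-06).

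RPL3 and RPL10, which lie close to the site of peptide bond formation, fell less. RPL3 was at 382, 335 and 339 CPM in the NC libraries and 287, 291 and 229 CPM in the si libraries. RPL10, one of the last proteins to join the large subunit, was at 75.9, 70.2 and 71.5 CPM against 52.8, 56.0 and 43.6 CPM. The groups were apart in both. The falls were 1.31-fold (log2 fold change -0.39, SE 0.09, edgeR adjusted p = 0.00167) and 1.43-fold (-0.51, SE 0.08, adjusted p = 2.82e-05). Of the exonic bases of RPL10, a fraction of 0.555 also belongs to other genes, mainly DNASE1L1 on the opposite strand, so its count may hold reads of its neighbours.

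The 4 large subunit genes with no call were RPL36, RPL37, RPL39 and RPL41, all small proteins. RPL37 was at 164, 162 and 174 CPM in the NC libraries and 189, 183 and 167 CPM in the si libraries (log2 fold change 0.11, SE 0.06, edgeR adjusted p = 0.151). RPL36 was at 39.2, 35.6 and 37.4 CPM against 34.5, 36.4 and 32.4 CPM (-0.12, SE 0.07, adjusted p = 0.157). In both, libraries of the groups interleaved. RPL39, which lines the exit tunnel, was at 34.6, 26.2 and 34.8 CPM against 35.9, 30.4 and 25.7 CPM (-0.06, SE 0.15, adjusted p = 0.774). RPL41, a very short peptide, was at 54.6, 46.2 and 52.9 CPM against 52.8, 49.97 and 46.3 CPM (-0.04, SE 0.07, adjusted p = 0.630). The spread within a group was as large as the distance between the groups for RPL39 and RPL41. The sign of RPL39 turned when NC library 3 (0.00050) or si library 3 (0.05) was left out.

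Among small subunit genes, RPS24 showed a large fall. RPS24 (ENSG00000138326, chromosome 10, 78033760 to 78056812, plus strand), which is needed to process the precursor of the small subunit RNA, was at 577, 550.1 and 533 CPM in the NC libraries and 339, 326 and 292 CPM in the si libraries. All si libraries lay well below the NC libraries. The fall was 1.73-fold (log2 fold change -0.79, SE 0.06, edgeR adjusted p = 6.94e-09).

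RPS3A, RPS2 and RPS3 were lower too. RPS3A was at 425, 369 and 379 CPM in the NC libraries and 255, 254 and 191 CPM in the si libraries. RPS2 was at 358, 324 and 307 CPM against 224, 227 and 196 CPM. RPS3, which lies at the entry of the mRNA channel as RPS2 does, was at 286, 255 and 263 CPM against 199, 189 and 159.9 CPM. None of the 3 overlapped between the groups. Their falls were 1.68-fold (log2 fold change -0.75, SE 0.11, edgeR adjusted p = 0.000265), 1.53-fold (-0.61, SE 0.07, adjusted p = 7.51e-07) and 1.47-fold (-0.56, SE 0.07, adjusted p = 7.19e-06).

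RPS27, a zinc-binding protein, was less certain. It was at 123, 118 and 115 CPM in the NC libraries and 90.2, 77.5 and 55.8 CPM in the si libraries. The groups did not overlap, and the 1.59-fold fall was called (log2 fold change -0.67, SE 0.18, edgeR adjusted p = 0.0244). The si libraries were spread widely, and the call was lost without any 1 of the NC libraries or si library 2 (adjusted p between 0.0529 and 0.0662). RPS4X (log2 fold change -0.51, SE 0.16, edgeR adjusted p = 0.0420) lost its call without the same libraries (0.0657 to 0.0982).

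RPS6, RPSA, RPS27A and RPS19 were lower as well. RPS6, whose phosphorylation by S6 kinases is a common readout of mTOR signalling, was at 664, 551 and 623 CPM in the NC libraries and 466, 479.7 and 399 CPM in the si libraries. RPSA, also known as a laminin receptor, was at 273, 257 and 262 CPM against 190.0, 192 and 162 CPM. The falls were 1.37-fold for RPS6 (log2 fold change -0.45, SE 0.08, edgeR adjusted p = 0.00013) and 1.45-fold for RPSA (-0.54, SE 0.07, adjusted p = 1.52e-06). RPS27A, made as a fusion with ubiquitin, was at 174, 164 and 171 CPM against 135, 138 and 123 CPM. RPS19, the gene most often mutated in Diamond-Blackfan anaemia, was at 159.7, 152 and 152 CPM against 135, 138 and 123 CPM. Groups were apart for all 4, and the falls of RPS27A and RPS19 were 1.29-fold (-0.36, SE 0.06, edgeR adjusted p = 5.07e-05) and 1.17-fold (-0.23, SE 0.06, adjusted p = 0.00386).

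The 4 small subunit genes with no call included RPS14, RPS26 and RPS28. RPS26, which lies at the mRNA exit channel and is placed by the chaperone TSR2, was at 17.8, 16.04 and 15.2 CPM in the NC libraries and 19.6, 19.0 and 17.1 CPM in the si libraries (log2 fold change 0.19, SE 0.09, edgeR adjusted p = 0.0776). Only si library 3 fell within the control range. RPS14, a platform protein whose loss underlies the 5q- form of myelodysplastic syndrome, was at 158, 154 and 163 CPM against 152, 149 and 145 CPM (-0.09, SE 0.06, adjusted p = 0.183). The groups of RPS14 did not overlap, but the distance was small and no call was made. RPS28 had the fewest counts of all members, at 3.92, 3.78 and 3.29 CPM against 2.97, 4.10 and 2.75 CPM (-0.16, SE 0.17, adjusted p = 0.442), with overlapping groups.

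Genes mutated in Diamond-Blackfan anaemia, an inherited failure of red cell production, include 13 of the members. Of these 9 (69.2%) were lower, 1 (7.69%) was higher (RPL11) and 3 were not called (RPS26 and RPS28 among them). Their median log2 fold change was -0.34. Among all genes tested 27.8% were lower and 28.4% higher, and among all 77 members 88.3% were lower.

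The order of levels among the ribosomal protein mRNAs was largely kept. Per kilobase of the deposited gene length, the control mean was highest for RPL23A at 856 CPM per kilobase, high also for RPL13A and RPL5, and lowest for RPS28 at 1.73 CPM per kilobase. The median member was at 53.5 CPM per kilobase in the NC group and 42.1 in the si group. Of the 77 genes, 61 stayed within 3 places of their rank, and the largest move was that of RPL11, by 13 places. The deposited length is the union of all annotated exons, which for genes with many annotated transcripts is longer than the main mRNA, and values per kilobase understate the level of such genes. Across the members, the log2 fold change and the control level in log2 CPM had a Pearson correlation of -0.46 (Spearman -0.48, n = 77 genes that share libraries). The 20 members with the highest CPM had a median log2 fold change of -0.49 with 19 lower, and the 20 with the lowest CPM had a median of -0.29 with 15 lower.

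Most members were lower whether or not their window held a run of at least 5 bases as marked above. Such a run is not a measured TOP tract, as 22.5% of tested protein-coding genes with an entry had one too. Whether the fall depends on a TOP tract was not tested. Of the 50 with a run at the RefSeq start, 44 were lower (median log2 fold change -0.40), and of the 12 without one, 11 were lower (median -0.50). RPL6, whose printed window holds no run of 5 bases, fell most. RPS14 and RPL39, with runs of 12 and 22 bases, had no call.

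A motif of the kind HNRNPD is known to bind was found in a smaller share of members than of all tested protein-coding genes. The letters ATTTA, the core of an AU-rich element, searched on the transcript strand, occurred in the annotated 3′ untranslated region of 28 of 77 members (36.4%), against 65.7% of 13620 tested protein-coding genes. Each gene's region came from a single transcript, the one with the longest coding part and then the longest overall. That transcript need not be the main mRNA in A549 cells. It gave some members long regions, such as 7242 bases for RPL37 and 6355 bases for RPL14. The share of members with ATTTA therefore depends on this choice. Most regions of the members were short, with a median of 94 bases against 940.5. Among regions of 10 to 200 bases, 3 of 44 members (6.82%) held ATTTA, against 16.6% of 1790 genes. Within that range the members' regions were still shorter, with a median of 50.5 bases against 112, so length was not matched. Members with ATTTA had a median log2 fold change of -0.42, with 23 of 28 lower, and those without it -0.41, with 45 of 49 lower. RPL11, with a region of 462 bases, held 2 of these motifs, and RPL6, with a region of 21 bases, held none. Binding was not measured.

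Several ribosomal proteins have a paralog outside the rule, and some of these changed against their parent. RPL26 (chromosome 17, 8377520 to 8383213, minus strand), which contacts the exit tunnel and is also known to bind p53 mRNA, was at 786, 702 and 737 CPM in the NC libraries and 554, 532 and 467 CPM in the si libraries. It fell 1.43-fold (log2 fold change -0.52, SE 0.07, edgeR adjusted p = 4.10e-06). Its paralog RPL26L1 was at 6.33, 6.23 and 5.88 CPM against 23.1, 24.1 and 21.5 CPM. That is a 3.73-fold rise with the groups far apart (1.90, SE 0.09, edgeR adjusted p = 4.82e-12). The log2 fold change of RPL26L1 lay between 1.86 and 1.93 in the 15 alternatives.

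RPL22, an RNA-binding protein of the large subunit, was at 1129.5, 882 and 1086 CPM in the NC libraries and 662, 732 and 644 CPM in the si libraries. It fell 1.52-fold (log2 fold change -0.60, SE 0.08, edgeR adjusted p = 1.97e-05). RPL22L1, which RPL22 protein is known to repress in mouse, was at 11.9, 12.03 and 11.4 CPM against 17.7, 15.3 and 15.5 CPM. The groups were apart for both genes, and RPL22L1 rose 1.37-fold (0.46, SE 0.09, edgeR adjusted p = 0.000248). RPS27L was at 57.6, 57.04 and 57.3 CPM against 47.9, 47.4 and 47.4 CPM, a fall of 1.204-fold (-0.27, SE 0.06, edgeR adjusted p = 0.000822) in the same direction as RPS27. Of the 10 paralogs, 7 were tested, and the other 4 of them were not called. Reads from near-identical stretches may be divided between a parent and its paralog, and how such reads were treated is not stated.

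FAU, a ribosomal protein made as a fusion with a ubiquitin-like protein, lies outside the rule. It was at 84.7 ± 5.28 CPM (SD, n = 3) in the NC libraries and 96.2 ± 3.54 CPM (SD, n = 3) in the si libraries, a rise of 1.14-fold (edgeR adjusted p = 0.0174) that was lost without NC library 2 or 3 or si library 2 (adjusted p 0.0762 to 0.115). A fraction of 0.226 of its exonic bases is shared with other genes.

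Among 16 other mRNAs known to carry a TOP tract, most of them for translation factors, 12 (75%) were lower and 3 (18.75%) were higher. The remaining 1, EIF4B, was not called, and the median log2 fold change was -0.48. Of protein-coding genes whose mean reached 10 CPM, 38.7% were lower and 31.2% higher. The falls included those of EEF1B2, an exchange factor of elongation (398 ± 26.8 to 245 ± 5.95 CPM, SD, n = 3 each; log2 fold change -0.70, edgeR adjusted p = 1.94e-08), TPT1 (-0.67, adjusted p = 2.33e-08) and EIF3H (-0.63, adjusted p = 1.11e-07). The 3 that rose were EEF1D (0.23, adjusted p = 0.00308), EIF3A (0.34, adjusted p = 0.000164) and EIF3F (0.84, adjusted p = 1.73e-07). The subunits EIF3F and EIF3H of initiation factor 3 thus moved in opposite directions. Other genes share a fraction of 0.340 of the exonic bases of EEF1D. For EEF1G, among the 12 lower, that fraction is 0.999.

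Of 17 genes that regulate these mRNAs, 7 (41.2%) were lower, 4 (23.5%) were higher and 6 were not called, with a median of -0.12. These shares are near the 38.7% and 31.2% of protein-coding genes whose mean reached 10 CPM. EIF4EBP1, a repressor of cap-dependent initiation that mTOR inactivates, fell 5.75-fold, from 46.0 ± 3.27 to 8.01 ± 0.534 CPM (SD, n = 3 each; edgeR adjusted p = 5.30e-14). RPTOR, the subunit of mTOR complex 1 that binds its substrates, rose 1.90-fold, from 48.3 ± 1.25 to 91.7 ± 2.95 CPM (SD, n = 3 each; edgeR adjusted p = 3.16e-10).

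Of 14 genes for the import and chaperoning of new ribosomal proteins, 9 (64.3%) were lower, 2 (14.3%) were higher and 3 were not called. Their median was -0.30. The shares for protein-coding genes whose mean reached 10 CPM were 38.7% lower and 31.2% higher. The importin TNPO1 fell 1.92-fold, from 227 ± 7.73 to 118 ± 1.19 CPM, and BCCIP, a chaperone of RPL23, fell 1.55-fold, from 243 ± 14.3 to 157 ± 4.38 CPM (SD, n = 3 each; edgeR adjusted p = 1.22e-10 and 5.66e-08). TSR2, the chaperone of RPS26, rose 1.47-fold, from 80.9 ± 6.77 to 119 ± 12.1 CPM (SD, n = 3 each; edgeR adjusted p = 1.32e-05). LTV1, an assembly factor of the small subunit, rose 1.36-fold (edgeR adjusted p = 2.28e-06), with a fraction of 0.348 of its exonic bases shared with other genes.

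The 78 mitochondrial ribosomal protein genes differed from the cytosolic ones in their counts. Of these, 22 (28.2%) were lower, 15 (19.2%) were higher and 41 were not called, with a median log2 fold change of -0.08. Their share of lower calls was close to the 27.8% of all genes tested, whereas that of the cytosolic genes was 88.3%. The difference between the lists was not tested, as genes of a list are not replicates.

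**Figure D4:**
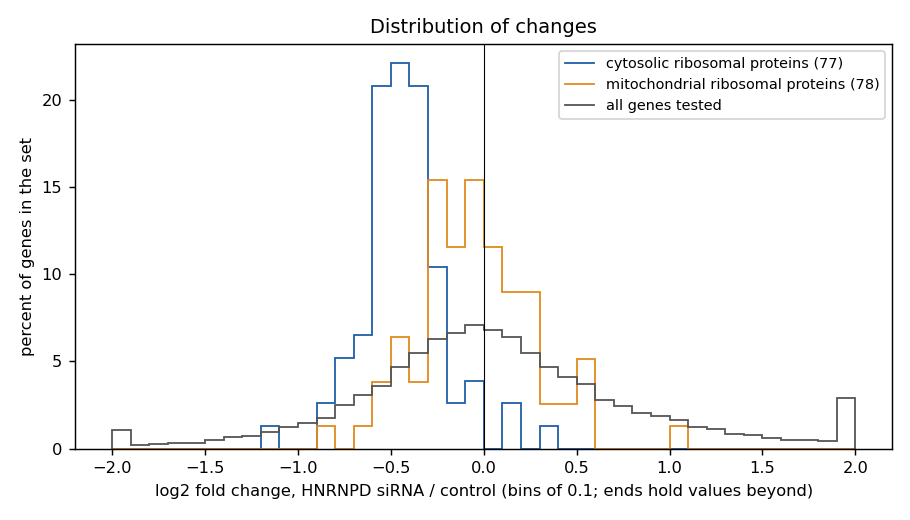
Percent of genes (y axis) per bin of 0.1 in log2 fold change (x axis, HNRNPD siRNA over control) for the 77 cytosolic and 78 mitochondrial ribosomal protein genes and all 20465 genes tested, with values beyond the ends gathered in the end bins. The cytosolic genes form a narrow peak around their median of -0.41, while the mitochondrial genes centre near their median of -0.08 and all genes near 0.01.

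Pseudogenes and overlapping genes can divide or add reads of ribosomal protein genes. Pseudogene entries, 1002 of them, exist in the table for 75 of the 77 members. Their counts came to 1.198% ± 0.05003 of the members' counts in the NC libraries and 1.36% ± 0.0159 in the si libraries (SD, n = 3 each). They exceeded 10% of the parent's counts only for RPL9 (18.5% in the NC libraries) and RPL32 (32.2%). With each member summed with its pseudogenes, 68 were again lower. Reads dropped for matching several places would be in neither entry, so these counts cannot show such a loss. A fraction of at least 0.1 of the exonic bases was shared with another gene for 19 members, among them RPS28 (0.214), RPS2 (0.256), RPL36 (0.195), RPS3A (0.140), RPL5 (0.127), RPLP2 (0.123), RPL26 (0.146) and RPS6 (0.104). Of the other 58, 51 were lower (median log2 fold change -0.41).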

How the data were processed

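The deposited table holds whole-number read counts per gene, as the file headers and values show, for 3 control and 3 HNRNPD siRNA libraries of A549 cells. Per the labels' protocols, Trizol RNA and the Illumina TruSeq RNA kit were used, and per the submitters' processing notes the tool Bowtie 0.12.2 and 2 builds, GRCh38 and mm8, are listed without a stated role. For the counting program, annotation, strand setting and treatment of reads with several matches, nothing is given in the sources used here. Libraries held 37151094 to 43005090 counts. Reads carry no molecular identifiers.

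Counts as deposited were compared with edgeR 4.0.16 (R 4.3.3; quasi-likelihood test with robust estimation, TMM, filterByExpr, group as the only term), with Benjamini-Hochberg adjustment over 20465 genes and calls at an adjusted p under 0.05. The procedure was tested on simulated data. CPM use TMM-scaled totals. Alternatives were DESeq2 1.42.0, limma-voom (limma 3.58.1), library totals, TMM factors without member and mitochondrial genes, other filters, a replicate block, members summed with pseudogenes, counts divided by 2, and each library left out.

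The members and gene lists were chosen with earlier results of these data known. Genes named with every library are the 6 lowest called members of each subunit, members called higher or not called, and members chosen for their role; a few genes that this rule takes are not reported here. From the other lists, the 1 to 3 genes with the smallest p are named. EIF3A, EIF3F, EEF1D, LTV1, TSR2, RPL22, RPL26, RPS4X and RPL27 were added after their values were seen. Tracts come from RefSeq promoters (GRCh38.p14), and 3′ untranslated regions from GENCODE 29.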

Additional observations from a re-analysis of the deposited data

How the results depend on the processing

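Of the 68 members called lower, 65 were called lower in each of the 15 alternatives, and the number lower ran from 66 to 69 (large subunit 40 to 41, small subunit 25 to 28). RPS27 and RPS4X lost their calls as given above, and RPL27 (log2 fold change -0.40) lost its call without si library 3 (edgeR adjusted p = 0.112). The number called higher was 2 with a filter of at least 1 CPM in 3 libraries, where RPS26 was called (adjusted p = 0.0420), and 1 to 3 with libraries left out. The large subunit median ran from -0.52 to -0.38 with libraries left out. RPL39 reversed to 0.00050 without NC library 3 and to 0.048 without si library 3, within a range of -0.19 to 0.048. Without mitochondrial genes the members' share of counts was 2.79% in the NC and 2.001% in the si group, as the smaller denominator gives, and with pseudogenes the large to small ratio in the NC group was 2.41.

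Deviations of same-numbered libraries from their group means correlated at 0.10, 0.05 and 0.03. Those of differently numbered libraries ran from -0.16 to 0.08. With 3 libraries per group these values cannot decide whether the replicate numbers pair the libraries. With the replicate block 69 members were lower, against 68 without it. Depth limits members with few counts, such as RPS28.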

Other observations

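Of the 77 members, 28 host at least 1 small nucleolar RNA within the gene. Of these hosts 26 (92.9%) were lower and 2 were not called, and their median log2 fold change was -0.47. Of the other 49 members 42 (85.7%) were lower, with a median of -0.40. Among all genes tested 27.8% were lower. The 12 members on chromosome 19 had a median of -0.34, with 10 lower, and the 6 on chromosome 17 had a median of -0.47, with all 6 lower.

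Of the 1002 pseudogene entries of ribosomal protein genes, 99 passed the filter on low counts. Among these 26 (26.3%) were lower, 9 (9.09%) were higher and 64 had no edgeR call, against 27.8% lower and 28.4% higher among all genes tested. The median log2 fold change was -0.40. Such entries can hold reads of the parent mRNA.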
